A study of Macaca mulatta with 24 samples.

Results

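A group of 10 genes of Wnt signaling was followed through the 6 layers of the lateral geniculate nucleus (LGN): the ligands WNT5A, WNT2B and WNT7A, the R-spondins RSPO1, RSPO2 and RSPO3, the receptors FZD3 and FZD7, the secreted Wnt binder SFRP1, and CTNNB1. The 10 genes were chosen by function with earlier results of these same arrays known, among them the deprivation difference of WNT5A. The deprivation values below are therefore given as a description without a test, and the p-values of the layer comparisons are not independent of that choice. On the Rhesus Macaque Genome Array 17 of the 52766 probe sets other than controls carried 1 of these symbols alone in the platform table. They stood for 9 of the 10 genes, and CTNNB1 was not analysed here because no probe set carried that symbol alone. WNT5A, FZD3 and SFRP1 had 3 probe sets each, WNT2B and FZD7 had 2 each, and the other genes had 1 each. Of the 17 probe sets, 13 reached a signal of 100 in at least 1 array and entered the tests.

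Wnt ligands are secreted lipid-modified proteins that bind Frizzled receptors (FZD) at the cell surface. With the co-receptors LRP5 and LRP6 they stabilize beta-catenin, the product of CTNNB1, while other Wnt signals act through ROR2, RYK or the planar cell polarity proteins without beta-catenin. R-spondins bind LGR4, LGR5 or LGR6 and raise the amount of Frizzled at the membrane, and secreted Frizzled-related proteins such as SFRP1 bind Wnts outside the cell. In the developing visual system Wnt signals are known for roles in axon guidance, dendrite growth and synapse formation.

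The samples came from the LGNs of 2 infant rhesus macaques whose left eye was deprived of form vision from birth, one for 4 months by tarsorrhaphy (surgical lid closure) and one for 2 months with an opaque contact lens. Each of the 6 layers of the 4 LGNs was captured by laser from several sections that were pooled, and gave 1 array, 24 in all. The groups were deprived parvocellular (8 arrays), nondeprived parvocellular (8), deprived magnocellular (4) and nondeprived magnocellular layers (4). Parvocellular layers are layers 3 to 6 and magnocellular layers are layers 1 and 2. On the ipsilateral side the deprived eye supplies layers 2, 3 and 5, and on the contralateral side layers 1, 4 and 6. No undeprived animal is among the arrays, so a nondeprived layer is one driven by the open eye of a deprived animal. The length of deprivation, its method and the animal itself cannot be told apart. Since only 2 animals were sampled, each p-value sets a difference against the spread among layers of their LGNs. In pooled tissue of this kind fewer cells of a type and less RNA per cell cannot be told apart.

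Across the arrays between 40.6% and 57.1% of probe sets read 100 or more, on a scale where the trimmed mean of every array is 500.04 in arbitrary units. A single array differed from the others, from the ipsilateral LGN at 2 months (layer 2, deprived), and is called the array that stood apart. Its mean correlation with the others was 0.811, against 0.885 to 0.919 for the rest, and its ratio of GAPDH signal from the 3' and 5' ends was 50.8, against at most 14.3. NEFH, the neurofilament heavy chain that is rich in magnocellular cells, read 20848 to 36436 in parvocellular and 27547 to 68373 in magnocellular layers (log2 difference -0.66, SE 0.13, limma adjusted p = 0.00271). FOXP2, listed here as a parvocellular marker, read 12.5 to 189 over all arrays with a log2 difference of 0.058 (SE 0.45) between the classes. Parvalbumin, a relay cell marker, read 13907 or more in every array, and CAMK2A, a koniocellular marker, read at most 51.0 in parvocellular layers and 175 in 1 magnocellular layer. None of the 5 general neuronal markers on the list had a probe set that could be named.

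WNT5A, a ligand best known for signaling without beta-catenin, was lower in parvocellular than in magnocellular layers by both of its stronger probe sets. Its strongest probe set, MmugDNA.8926.1.S1_s_at, had a lowest, median and highest signal of 113, 524 and 841 in the 16 parvocellular layers, against 659, 1816 and 3317 in the 8 magnocellular layers. The log2 difference of parvocellular minus magnocellular layers was -1.82 (SE 0.18, limma adjusted p = 4.77e-07). The ranges of the classes overlapped only through the array that stood apart, which read 659. Without it the lowest magnocellular signal was 1068, the ranges were separate, and the log2 difference was -1.92. Without that array the class ranges did not overlap for 0.117% of the 37623 probe sets tested. Within each of the 4 LGNs the 4 parvocellular signals all lay below both magnocellular signals. No share of all probe sets is given for this separation within LGNs, so it is a description. The within-LGN log2 differences were -2.24 (ipsilateral) and -1.51 (contralateral) in the animal deprived for 4 months, and -1.64 (ipsilateral) and -1.88 (contralateral) in the animal deprived for 2 months.

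The other WNT5A probe sets were read at lower signals. MmugDNA.25072.1.S1_at had a lowest, median and highest signal of 67.3, 122 and 257 in parvocellular and 202, 493 and 941 in magnocellular layers. Its log2 difference was -1.89 (SE 0.20, limma adjusted p = 9.97e-07). The weakest probe set, another of the _s_at type, read 1.27, 30.2 and 96.3 in parvocellular and 67.6, 179 and 259.5 in magnocellular layers (log2 difference -2.66, SE 0.52). It reached 100 in none of the 16 parvocellular layers and in 7 of the 8 magnocellular layers, so it passed the filter only through the class where it is high, and its difference is given as a description that adds no support. For both stronger probe sets the classes were separate within every LGN, for which no share of all probe sets is given. Over the 24 arrays the log2 signals of the first probe set correlated with those of the second at r = 0.890 and with those of the weakest at r = 0.808, and the other pair correlated at r = 0.706. These correlations are a description, since the arrays share 4 LGNs and 2 layer classes. The suffix _s_at marks a probe set whose probes match more than 1 transcript.

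**Figure D1:**
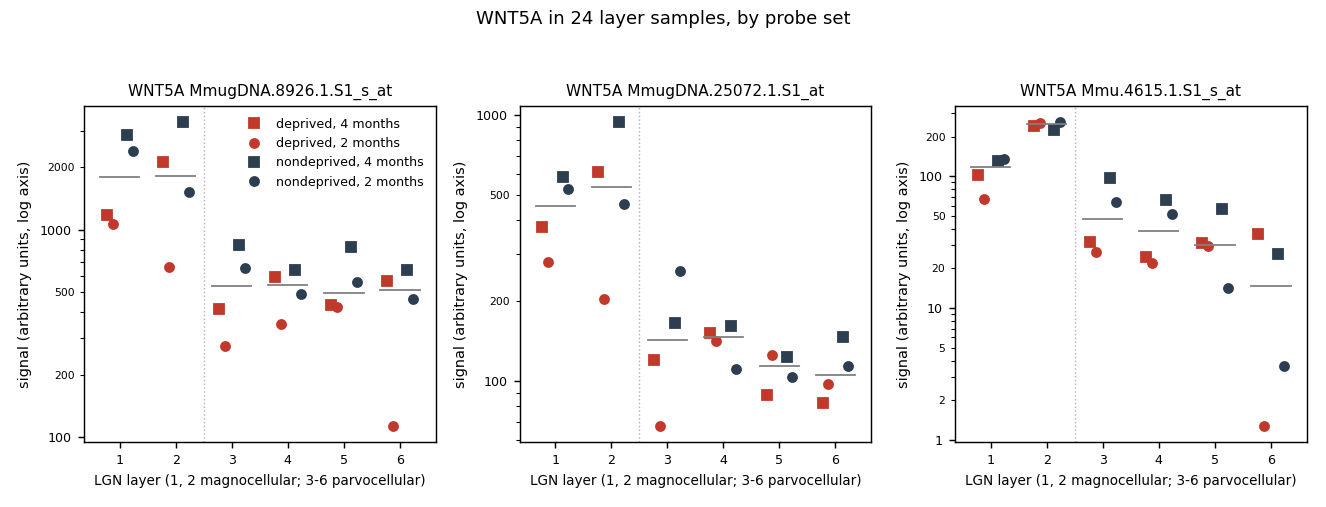
Signal of the 3 WNT5A probe sets in arbitrary units on a log axis, by LGN layer, with deprived layers in red on the left and nondeprived layers in dark blue on the right of each layer position, squares for the animal deprived for 4 months and circles for 2 months, and gray lines for the median of the 4 arrays of a layer. In all 3 panels the medians of layers 1 and 2 lie above those of layers 3 to 6, while single arrays of the 2 classes overlap. In the first panel 1 deprived layer 6 array reads 113.

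By single layer, the strongest WNT5A probe set averaged 1875 ± 890.0 in layer 1 and 1902 ± 1116 in layer 2 (SD, n = 4 arrays each). Its mean signal was 546 ± 251 in layer 3, 518 ± 128 in layer 4, 560 ± 187 in layer 5 and 444 ± 232 in layer 6 (SD, n = 4 each). In the order of these means, layers 2, 1, 5, 3, 4 and 6, the only neighbors whose ranges did not overlap were layers 1 and 5, that is the step between the classes. Outer and inner parvocellular layers, 5 and 6 against 3 and 4, read 502 ± 205 and 532 ± 185 (SD, n = 8 each), with a log2 difference of -0.17 (SE 0.21, limma adjusted p = 0.821) that turned positive after scaling to the same median.

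RSPO3, an R-spondin that amplifies Wnt signaling, was higher in parvocellular than in magnocellular layers. Its probe set had a lowest, median and highest signal of 868, 1406 and 2404 in the 16 parvocellular layers, against 265, 428 and 659.5 in the 8 magnocellular layers. The ranges did not overlap, which held for 0.0797% of the 37623 probe sets tested. The log2 difference was 1.705 (SE 0.15, limma adjusted p = 7.81e-08), and without the array that stood apart it was 1.76. It was 1.88 (ipsilateral) and 2.13 (contralateral) in the animal deprived for 4 months, and 1.38 (ipsilateral) and 1.42 (contralateral) in the animal deprived for 2 months. Layer means were 494 ± 180 in layer 1, 415 ± 149 in layer 2, 1252 ± 257 in layer 3, 1527 ± 645 in layer 4, 1551 ± 561 in layer 5 and 1504 ± 284 in layer 6 (SD, n = 4 each). The only neighbors in the order of these means that did not overlap were layers 3 and 1, again the step between the classes. In parvocellular layers the mean was 1759 ± 399 in the animal deprived for 4 months and 1158 ± 209 in the animal deprived for 2 months (SD, n = 8 each), while the magnocellular mean was 455 ± 179 at 4 months and 454 ± 164 at 2 months (SD, n = 4 each).

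The other R-spondins were read near the bottom of the scale. RSPO2 had a lowest, median and highest signal of 8.10, 71.4 and 188 in parvocellular and 19.1, 152 and 306 in magnocellular layers, with a log2 difference of -0.60 (SE 0.41, limma adjusted p = 0.499). RSPO1 read 5.91 to 86.6 and reached 100 in none of the 24 arrays, so it entered no test.

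**Figure D2:**
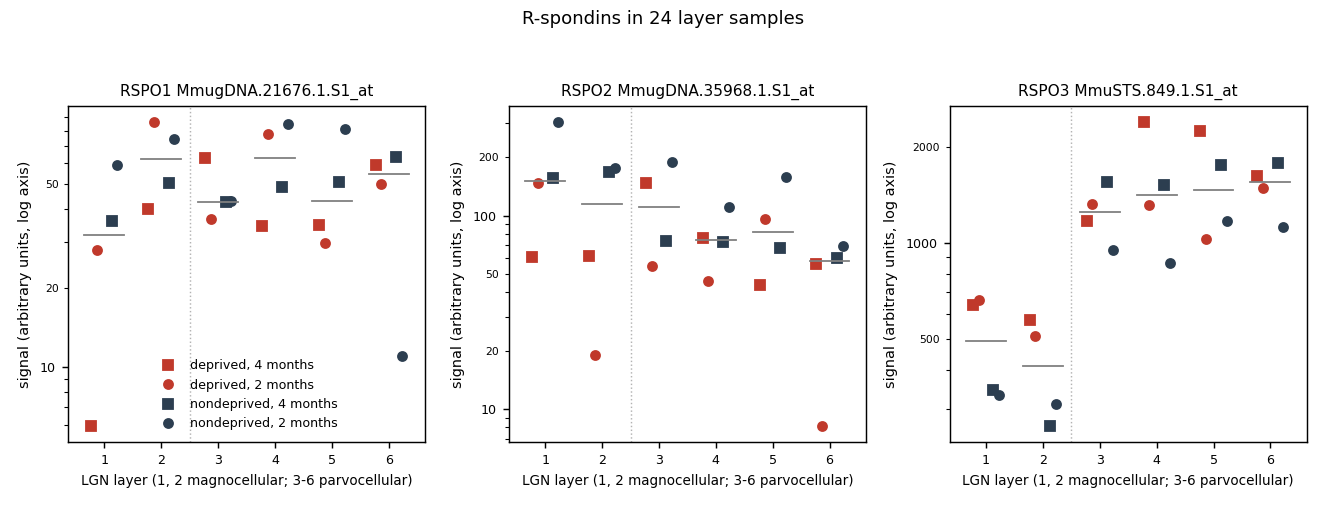
Signal of RSPO1, RSPO2 and RSPO3 in arbitrary units on log axes that differ between panels, by LGN layer, with deprived layers in red on the left and nondeprived layers in dark blue on the right of each layer position, squares for 4 months, circles for 2 months and gray lines for the median of a layer. RSPO3 reads 265 to 659.5 in layers 1 and 2 and 868 to 2404 in layers 3 to 6, and within layers 1 and 2 all 4 deprived arrays lie above the 4 nondeprived arrays.

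The remaining ligands, receptors and the binder SFRP1 did not pass the test between layer classes. WNT2B, a ligand of the beta-catenin branch, read 64.2, 87.6 and 207 (lowest, median, highest) in parvocellular and 74.8, 132 and 213 in magnocellular layers (log2 difference -0.41, SE 0.19, limma adjusted p = 0.271). WNT7A, a ligand known for roles at synapses and in brain vessels, read 112, 200.1 and 351 in parvocellular and 73.3, 223 and 286 in magnocellular layers. Its log2 difference was -0.05 (SE 0.18, limma adjusted p = 0.923) and turned positive after scaling to the same median. SFRP1 read 257, 366 and 1158 in parvocellular and 224, 340.4 and 491 in magnocellular layers (log2 difference 0.23, SE 0.19, limma adjusted p = 0.593). Its other probe sets gave differences of -0.70 (SE 0.59) and -1.41 (SE 0.94), with correlations over the arrays of 0.0829 and 0.123 between the strongest and the other 2. The one at -1.41 reached 100 in 2 magnocellular layers and in no parvocellular layer. It thus passed the filter only through the class where it is high, and its difference is a description that adds no support. FZD3, a Frizzled known for axon guidance, reached 100 in 1 array, and FZD7 in 1 array, so that neither receptor gave a level above the low end of the scale. Their log2 differences were -0.23 (SE 0.23) and -0.19 (SE 0.47). FZD3 passed the filter only through 1 magnocellular layer, in the class where it is higher, so its difference adds no support either.

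Of the 8 genes with a tested probe set, 1 was called higher in parvocellular layers, 1 lower and 6 neither, where a call means a limma adjusted p under 0.05 over all probe sets. Among all probe sets tested 3.58% were called in this comparison, 844 higher and 504 lower. The median log2 difference of the 8 genes was -0.21, beside -0.03 over all probe sets. It lies between the values of FZD3 and FZD7, which reached 100 in 1 array each, so it is not read as a shift of the group. Among markers of other cells, GAD1 of the GABAergic list averaged 12150 ± 2238 in 16 parvocellular and 17860 ± 3570 in 8 magnocellular layers (SD; log2 difference -0.56, SE 0.10, limma adjusted p = 0.00173). GAD2, the other of the 2 genes measured of 3, gave 0.40 (SE 0.22, limma adjusted p = 0.390), and the sum of both, 9296 to 16045 in parvocellular and 14408 to 24464 in magnocellular layers, is almost all GAD1. The part of these cells in the WNT5A and RSPO3 differences was not tested.

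**Figure D3:**
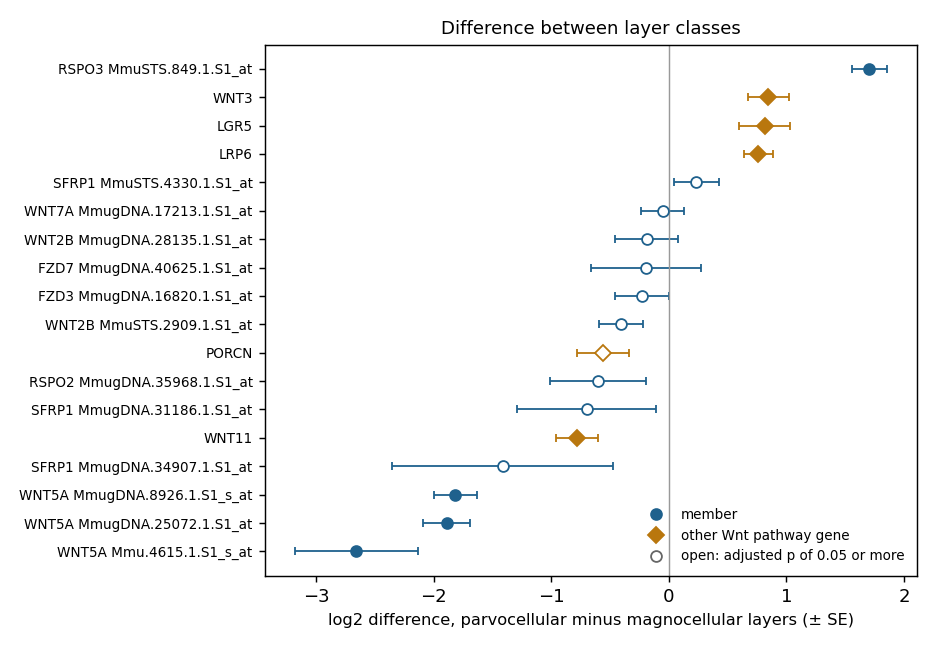
Log2 difference of parvocellular minus magnocellular layers from limma with its SE, for the 13 member probe sets tested (blue circles) and the other Wnt pathway genes named (orange diamonds). Filled symbols had an adjusted p under 0.05: RSPO3 at 1.705 at the top, the 3 WNT5A probe sets from -1.82 to -2.66 at the bottom, of which the one at -2.66 passed the filter only through magnocellular layers.

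Beyond these genes, a list of 80 other Wnt pathway genes had 64 with a probe set, of which 56 were tested. In the layer classes 3 of the 56 were called higher in parvocellular layers and 1 lower, beside 3.58% of all probe sets, and their median log2 difference was 0.04, beside -0.031 over all probe sets. WNT3, a ligand of the beta-catenin branch, read 1967, 4071 and 5655 (lowest, median, highest) in parvocellular and 1382, 1931 and 3586 in magnocellular layers (log2 difference 0.84, SE 0.18, limma adjusted p = 0.00489). LRP6, the Wnt co-receptor, read 3902, 5873 and 7933 in parvocellular and 2281, 3214 and 5265 in magnocellular layers (0.76, SE 0.12, limma adjusted p = 0.00031). LGR5, a receptor for R-spondins, read 65.4, 121 and 298 in parvocellular and 52.7, 66.8 and 155 in magnocellular layers (0.82, SE 0.22, limma adjusted p = 0.0315). The call of LGR5 rested on single arrays, all of the animal deprived for 2 months: it was lost without ipsilateral layer 1, 2, 3 or 4 or without contralateral layer 2 or 4. WNT11, a ligand that like WNT5A is known for signaling without beta-catenin, was the gene called lower, with 66.9, 145 and 334 in parvocellular and 117, 259 and 358 in magnocellular layers (-0.78, SE 0.18, limma adjusted p = 0.0115). Further probe sets of these genes did not all follow: a second one for LRP6 gave -0.13 (SE 0.25) and for LGR5 -0.11 (SE 0.28), while those of WNT3 gave 0.44 (SE 0.31) and 0.91 (SE 0.35) without passing the test. PORCN, the enzyme that lipidates Wnts for secretion, had the next lower difference at -0.56 (SE 0.22, limma adjusted p = 0.178).

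By role, 10 ligands of the list were tested between the classes and 1 was called in each direction. Of 11 receptors and co-receptors 1 was called higher, of 3 R-spondin receptors and their partners 1 was called higher, and of 9 secreted or surface inhibitors, 8 intracellular relay genes, 5 nuclear partners, 3 feedback targets and 5 planar cell polarity genes none was called. These calls by role stand beside the 3.58% of all probe sets called. An unadjusted p under 0.05 was found for 11 of the 56 genes (19.6%) and for 16.2% of all probe sets.

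Deprivation of the eye went with a lower WNT5A signal in both layer classes. In the 8 deprived parvocellular layers the strongest probe set had a lowest, median and highest signal of 113, 418 and 593, against 462, 639 and 841 in the 8 nondeprived ones. The means were 396 ± 154 in deprived and 638 ± 139 in nondeprived layers (SD, n = 8 each), the log2 difference was -0.80 (SE 0.20), and the deprived layer was lower in 8 of 8 within-LGN pairs. The groups overlapped. The lowest array, layer 6 of the contralateral LGN at 2 months, read 113, and without it the log2 difference was -0.58. By LGN it was -0.60 (ipsilateral) and -0.53 (contralateral) at 4 months, and -0.48 (ipsilateral) and -1.60 (contralateral) at 2 months. The mean log2 difference was -0.56 in the animal deprived for 4 months and -1.04 in the animal deprived for 2 months. In magnocellular layers WNT5A read 2115 and 1178 (4 months) and 659 and 1068 (2 months) in deprived layers, against 2858 and 3317 (4 months) and 2396 and 1518 (2 months) in nondeprived layers, with the ipsilateral LGN first in each pair. The means were 1255 ± 615 in deprived and 2522 ± 768 in nondeprived layers (SD, n = 4 each), the log2 difference was -1.07 (SE 0.31), and the deprived layer was lower in 4 of 4 pairs. The groups overlapped through ipsilateral layer 2 at 4 months, and without the array that stood apart the difference was -0.81.

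The other WNT5A probe sets followed less closely. MmugDNA.25072.1.S1_at averaged 109 ± 29.8 in deprived and 147 ± 50.1 in nondeprived parvocellular layers (SD, n = 8 each; log2 difference -0.42, SE 0.23) and was lower in 7 of 8 pairs. In magnocellular layers it averaged 367 ± 176 in deprived and 628 ± 215 in nondeprived layers (SD, n = 4 each; -0.84, SE 0.34) and was lower in 3 of 4 pairs. The weakest probe set was lower in 6 of 8 parvocellular pairs (log2 difference -0.80, SE 0.68) and in 2 of 4 magnocellular pairs (-0.32, SE 0.53), with no parvocellular signal above 96.3. The probe sets thus ran alike only in part in the deprivation difference.

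RSPO3 was higher in deprived magnocellular layers. It read 571 and 639.6 (4 months) and 511 and 659.5 (2 months) in deprived layers, against 344 and 265 (4 months) and 332 and 313 (2 months) in nondeprived layers, with the ipsilateral LGN first in each pair. The means were 595 ± 67.6 in deprived and 313 ± 34.7 in nondeprived layers (SD, n = 4 each), the log2 difference was 0.93 (SE 0.31), and the deprived layer was higher in 4 of 4 pairs with no overlap of the groups. Among all probe sets tested, the magnocellular groups did not overlap for 4.07%. Without the array that stood apart the log2 difference was 1.03. In parvocellular layers RSPO3 read 1029, 1406 and 2404 (lowest, median, highest) in deprived and 868, 1346 and 1788 in nondeprived layers (log2 difference 0.22, SE 0.14), and was higher in 5 of 8 pairs. The difference between these effects, parvocellular minus magnocellular, was -0.70 (SE 0.27), and in this comparison 0% of all probe sets were called.

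RSPO2 was lower in deprived magnocellular layers, at 61.8 and 61.2 (4 months) and 19.1 and 147 (2 months), against 157 and 168 (4 months) and 306 and 175 (2 months) in nondeprived layers, with the ipsilateral LGN first in each pair. The groups did not overlap, as for 4.07% of all probe sets tested, 485 of them lower in deprived layers. The log2 difference was -1.77 (SE 0.60), but 3 of the 4 deprived signals were under 100. The lowest was that of the array that stood apart, without which the difference was -1.02. In parvocellular layers RSPO2 was lower in 5 of 8 pairs (-0.82, SE 0.46), where a deprived layer 6 array at 8.10 was the lowest signal. Without that array the difference was -0.38, and it was 0.082 in the animal deprived for 4 months and -1.72 in the animal deprived for 2 months.

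**Figure D4:**
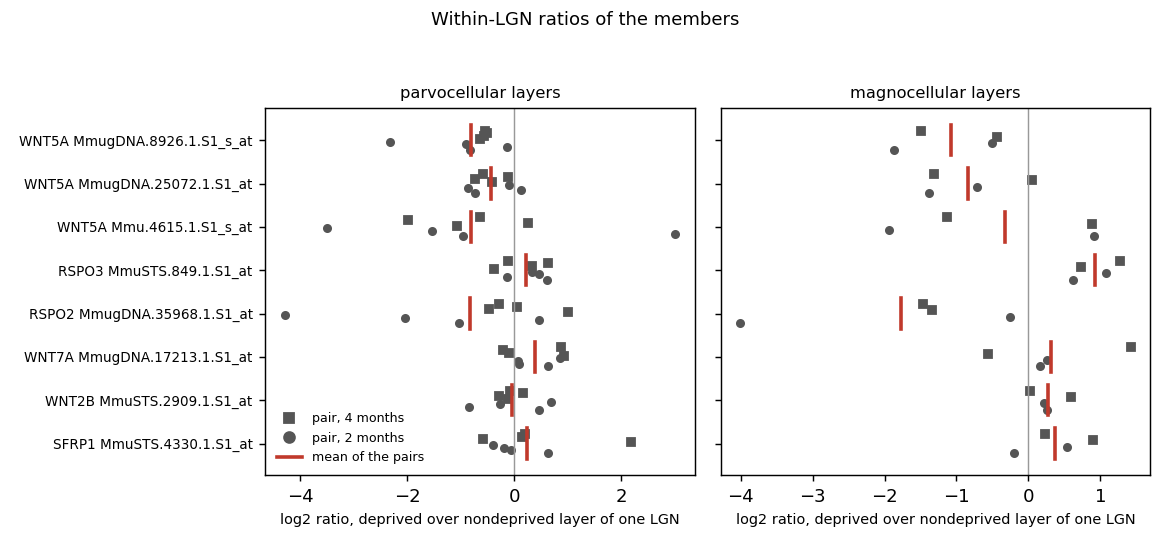
Log2 ratio of the deprived over the nondeprived layer of the same LGN for 8 member probe sets, in 8 parvocellular pairs (left) and 4 magnocellular pairs (right), with squares for 4 months, circles for 2 months and a red line for the mean of the pairs. The first WNT5A probe set is below 0 in all 12 pairs and RSPO3 is above 0 in all 4 magnocellular pairs.

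WNT7A averaged 226 ± 81.7 in deprived and 166 ± 42.4 in nondeprived parvocellular layers (SD, n = 8 each; log2 difference 0.39, SE 0.20) and was higher in 6 of 8 pairs. In magnocellular layers it averaged 222 ± 67.3 in deprived and 189.6 ± 79.1 in nondeprived layers (SD, n = 4 each; 0.32, SE 0.42), and was higher in 3 of 4 pairs. WNT2B gave log2 differences of -0.03 (SE 0.23) in parvocellular and 0.27 (SE 0.40) in magnocellular layers. In the animal deprived for 4 months it read 92.7 to 113 in deprived and 74.8 to 91.3 in nondeprived magnocellular layers. In the animal deprived for 2 months it read 181 to 213 in deprived and 152 to 183 in nondeprived magnocellular layers. No share of all probe sets is given for this difference between the animals, so it is not read as a trait of WNT2B. SFRP1 averaged 478 ± 286 in deprived and 376 ± 104 in nondeprived parvocellular layers (SD, n = 8 each), where 1 deprived array (layer 3, ipsilateral LGN, 4 months) read 1158 and the others at most 527. FZD3 read 36.3 to 83.9 in deprived parvocellular layers, against 44.0 to 92.0 in nondeprived ones, below 100 throughout. FZD7 gave its largest difference between outer and inner parvocellular layers, at 18.5 ± 7.01 and 54.7 ± 40.3 (SD, n = 8 each; log2 -1.49, SE 0.44). This probe set reached 100 in 1 array only, an inner layer that read 149. It thus passed the filter only through the group where it is high, and the difference is a description that adds no support. The other FZD7 probe set read 36.1 ± 23.7 in outer and 36.2 ± 24.4 in inner layers (SD, n = 8 each). In that comparison 0% of all probe sets were called, with 3377 at an unadjusted p under 0.05.

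**Figure D5:**
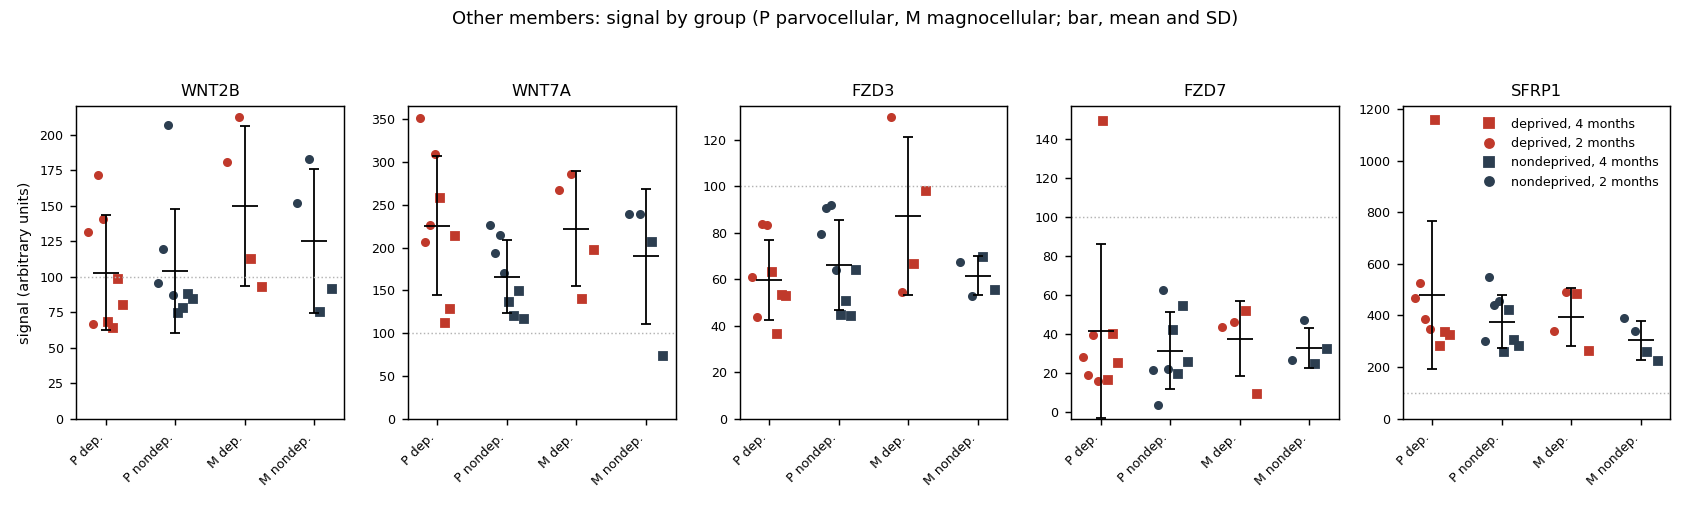
Signal in arbitrary units of the strongest probe set of WNT2B, WNT7A, FZD3, FZD7 and SFRP1 in deprived and nondeprived parvocellular (P) and magnocellular (M) layers, with squares for 4 months, circles for 2 months, and black bars for the mean and SD of 8 or 4 arrays. The dotted line is at a signal of 100, which FZD3 and FZD7 passed in 1 array each and WNT2B in 10 of 24.

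A fold rule modeled on that of the study was applied, with a mean fold of at least 1.7 and the same direction in 6 of 8 or 4 of 4 within-LGN pairs. It is looser than the study's, since the sign of a ratio stands in for the increase and decrease calls of the array software and absent calls were not used. In parvocellular layers it called 2 of the 13 tested probe sets, both of WNT5A and both lower. The strongest had a mean fold of 0.574, which was 0.588 with 16 added to the signals, just short of the rule. The weakest had 0.575, with no signal above 96.3, and its call was lost with signals under 50 set to 50 (0.846). In magnocellular layers 3 were called: WNT5A lower (0.475), RSPO2 lower (0.294) and RSPO3 higher (1.90). RSPO3 lost the call after scaling the arrays to the same median, with a fold of 1.56 and 3 of 4 pairs higher. Over all probe sets this rule called 3.44% in parvocellular and 6.86% in magnocellular layers. With limma none of the 13 was called in either class, where 0.97% of all probe sets were called in parvocellular and 0% in magnocellular layers, where 2138 had an unadjusted p under 0.05. No member had separate parvocellular groups, which 0.165% of all probe sets had. Since the members were chosen with such values known, these counts are given without a reading.

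Some markers of other cells moved with deprivation. GFAP, the astrocyte filament, averaged 7563 ± 3633 in deprived and 3283 ± 596 in nondeprived parvocellular layers (SD, n = 8 each; log2 difference 1.07, SE 0.21, limma adjusted p = 0.0184). The other astrocyte markers measured, SLC1A3 and ALDH1L1, gave -0.06 (SE 0.12) and 0.23 (SE 0.16). The sum of the 3 astrocyte markers measured of 5, of which SLC1A3 is the largest part, spanned 14479 to 26765 in deprived parvocellular layers, against 12701 to 17838 in nondeprived ones. In magnocellular layers it spanned 14642 to 31862 in deprived layers, against 15143 to 22391 in nondeprived ones. The sum of 4 of 6 markers of fibroblasts, meninges or pericytes was 1188 to 1919 in deprived and 831 to 909.9 in nondeprived magnocellular layers. The median ratio of GAPDH signal from the 3' and 5' ends was 8.11 in deprived and 4.36 in nondeprived magnocellular layers. The GABAergic sum was 18450 to 24464 in deprived and 14408 to 16724 in nondeprived magnocellular layers. Among single probe sets tested, the magnocellular groups did not overlap for 4.07%. The microglia sum overlapped in both classes, with medians of 1736 in deprived and 1285 in nondeprived parvocellular layers, and 1477 and 1174 in magnocellular layers. The sums of the other marker lists overlapped too, with medians that moved in either direction. The part of these cells and of RNA quality in the WNT5A, RSPO2 and RSPO3 values was not tested.

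With limma none of the 56 other Wnt pathway genes was called for deprivation. The fold rule called FZD5 and SFRP2 higher in parvocellular layers and WNT16, LRP5, PTK7 and WIF1 higher in magnocellular layers, and none lower. These were 2 and 4 of the 56 genes, where the rule called 3.44% and 6.86% of all probe sets. Over all probe sets the parvocellular calls were 637 higher and 659 lower, and the magnocellular calls 2095 higher and 487 lower. Among the genes called, SFRP2 reached 100 in 1 array, PTK7 in 2 and LRP5 in 4. In parvocellular layers 7 of the 56 (12.5%) had an unadjusted p under 0.05, beside 11.4% of all probe sets, and the largest differences were those of FZD5, a Frizzled receptor, at 0.89 (SE 0.33, limma adjusted p = 0.256), of WIF1, a secreted Wnt inhibitor, at 0.67 (SE 0.38, adjusted p = 0.552), of WNT11 at -0.59 (SE 0.22, adjusted p = 0.258) and of the ligand WNT16 at -0.58 (SE 0.24, adjusted p = 0.323). In magnocellular layers 2 of the 56 (3.57%) had an unadjusted p under 0.05, beside 5.68% of all probe sets. The largest differences there were those of DVL2, a relay protein, at 1.39 (SE 0.84), and WIF1 at 1.35 (SE 0.52). On the lower side they were those of the kinase gene GSK3B at -0.74 (SE 0.36) and the polarity gene PRICKLE1 at -0.55 (SE 0.47). Each had a limma adjusted p of 0.836 or more. DVL2 read 252 in the array that stood apart and 30.9, 27.4 and 178 in the other deprived magnocellular layers. In nondeprived magnocellular layers DVL2 read 10.4 to 73.6. WIF1 read 840 in 1 deprived parvocellular array (layer 3, ipsilateral LGN, 4 months) and at most 246 in the others, against 35.2 to 153 in nondeprived parvocellular layers. Of the receptors and co-receptors, 10 of 11 had a positive difference in parvocellular and 10 of 11 in magnocellular layers, without a call. Beside these stood a median over all probe sets of -0.01 (parvocellular) and 0.13 (magnocellular). Intracellular relay genes leaned the other way, with 2 of 8 positive in either class. Such sign counts of single roles are a description, since no share of positive differences over all probe sets is given. Among the receptors and co-receptors, LRP5 and ROR1 reached 100 in 4 arrays each and PTK7 in 2.

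Among the pathway genes with a mean signal of 100 or more, WNT16 had the largest difference of deprivation effects between the classes. It read 177, 432 and 691 (lowest, median, highest) in deprived and 430, 593 and 833 in nondeprived parvocellular layers. In magnocellular layers it read 587 and 488 (4 months) and 331 and 644 (2 months) in deprived layers, against 259 and 226 (4 months) and 235 and 222 (2 months) in nondeprived layers, with the ipsilateral LGN first in each pair. The deprived magnocellular arrays were all above the nondeprived ones. Among all probe sets tested the magnocellular groups did not overlap for 4.07%, 1045 of them higher and 485 lower in deprived layers. The difference of effects was -1.66 (SE 0.41), which did not pass over all probe sets (limma adjusted p = 0.540).

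Between outer and inner parvocellular layers none of the 56 genes was called. The largest differences were those of FZD5 at 0.45 (SE 0.32), WNT16 at 0.32 (SE 0.23), the Wnt deacylase NOTUM at -0.59 (SE 0.36) and the receptor gene ROR2 at -0.37 (SE 0.25), with limma adjusted p-values of 0.626 to 0.691.

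The genes whose log2 signal was most like that of a member over the 24 arrays are given as a description, since the arrays share LGNs and layer classes. For the strongest WNT5A probe set they were TP53I3 (r = 0.913), RNF175 (r = 0.896) and GSKIP (r = 0.886), and for RSPO3 they were GPI (r = 0.916), ABTB3 (r = 0.897) and ST8SIA4 (r = 0.893). WNT2B was most like TRPM3 (r = 0.889), LPAR2 (r = 0.860) and TRIM72 (r = 0.855), and WNT7A was most like HYAL2 (r = 0.854), FXYD7 (r = 0.853) and GPR17 (r = 0.845). The nearest genes of RSPO2 and SFRP1 reached at most r = 0.795 (ABCA9) and r = 0.775 (SLC31A2).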

How the data were processed

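RNA of laser-captured LGN layers was amplified in 2 rounds and hybridized by the authors, 1 array per layer. The deposited values are signal intensities on a linear scale, computed by the authors with GCOS from perfect match and mismatch probes and scaled by them so that the mean without the top and bottom 2% of probe sets was 500.04. Genome build and annotation are not given in the sources used here. Gene symbols came from the platform table, which names 24956 probe sets with 1 symbol, 361 with several and 27449 with none.

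Signals under 1 were set to 1 before log2. Probe sets that reached 100 in at least 1 array (37623 of 52766; 99 controls were left out) were fitted with limma 3.58.1 and statmod 1.5.0 under R 4.3.3, using eBayes with a trend, and the LGN as a fixed block. Benjamini-Hochberg adjustment covered every probe set fitted, with a threshold of 0.05. A gene was represented by the probe set whose log2 signal averaged highest. The fold rule used signals as deposited, with the sign of a ratio in place of a change call and without absent calls. Fits were tested on simulated data. The members and gene lists were chosen with earlier results of these data known. Named were all member probe sets, every called pathway gene, the 2 pathway genes with the largest differences per direction among those with a mean signal of 100 or more in the higher group, and the 3 genes most like each member with such a mean. Neighbouring layers were said to overlap by their ranges. The number of arrays limits the precision. Alternatives were other scalings, floors, filters and blocks, each array left out, each animal alone, and the mean over the probe sets of a gene.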

Additional observations from a re-analysis of the deposited data

Results flagged for a closer look

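Of the 52 groups of 4 or 8 arrays examined for the 13 tested member probe sets, 11 held a signal far from the rest of the group. Chance gives about 1 in 20 such groups where signals are normally distributed. That was not tested for these signals, which were taken on the linear scale, so the 11 are not read as an excess. Several of these groups share an array. In nondeprived parvocellular layers, layer 3 of the contralateral LGN at 2 months was the highest array for WNT5A (MmugDNA.25072.1.S1_at, 257) and for both WNT2B probe sets (207 and 184). In deprived parvocellular layers, layer 3 of the ipsilateral LGN at 4 months was the highest for SFRP1 (1158) and FZD7 (149), and layer 6 of the contralateral LGN at 2 months was the lowest for WNT5A (weakest probe set, 1.27). In deprived magnocellular layers, the array that stood apart was the highest for the 2 weaker SFRP1 probe sets (259 and 169). In nondeprived magnocellular layers, layer 2 of the contralateral LGN at 2 months was the highest for the same 2 probe sets (249 and 193), and layer 1 of the ipsilateral LGN at 2 months was the highest for RSPO2 (306).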

How the results depend on the processing

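Between the layer classes 6 Wnt genes were called, beside 3.58% of all probe sets. They were WNT5A and RSPO3 of the 8 members tested, and WNT3, LRP6, LGR5 and WNT11 of the 56 other pathway genes. Under the alternatives the count was 2 to 7. It was 3 when only the 4-month animal was fitted (WNT5A, RSPO3 and LRP6), 2 when only the 2-month animal was (WNT5A and RSPO3), and 5 to 7 with 1 array left out. Shares of all probe sets are not given for these alternatives, so the counts are a description. WNT5A (strongest probe set, -2.12 to -1.70) and RSPO3 (1.3998 to 2.01) were called in all 35 alternatives. For deprivation in parvocellular layers limma called 0 genes, and 1 (WNT5A) with a filter on the mean signal. With 1 array left out the count was 0 to 1, the 1 being WNT5A without the deprived layer 6 array of the contralateral LGN at 2 months. WNT5A was chosen with its deprivation difference known, so these counts are given without a reading and add no support. Layer numbers shared by the 2 LGNs of an animal were not taken as pairs, since not every correlation of deviations was over 0.1 (0.0185 to 0.254 in parvocellular, 0.0926 to 0.411 in magnocellular layers, all positive). With the layer number within an animal as the replicate block, limma called 0 Wnt genes for deprivation in either class, and over all probe sets 133 were called in parvocellular layers against 365, so the block changed no call of a Wnt gene. By the fold rule 2 member probe sets were called in parvocellular layers, 1 with signals under 50 set to 50, and, in settings chosen after seeing the data, 1 after quantile normalization and 0 with 16 added to the signal. In magnocellular layers RSPO3 lost this call after scaling to the same median, also chosen after seeing the data for this rule, at a log2 difference of 0.64.

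Directions of uncalled differences turned in several settings. Scaling to the same median moved the median of all probe sets by more than 0.1, to 0.10 from -0.03 for the classes, to -0.18 from 0.13 for deprivation in magnocellular layers and to 0.19 from -0.10 for outer against inner layers. Relative to that median the magnocellular deprivation difference was -1.18 after this scaling and -1.21 before for WNT5A, and 0.82 and 0.79 for RSPO3. It turned WNT7A to 0.063 between the classes, and between outer and inner layers WNT5A to 0.10, WNT7A to 0.0363, FZD3 to 0.16 and SFRP1 to 0.20. After quantile normalization FZD3 was 0.15 and SFRP1 0.012 between outer and inner layers. FZD7 between the classes was 0.12 with signals under 50 set to 50, 0.54 with only the 4-month animal and 0.15 as the mean over its probe sets. With only the 4-month animal WNT7A was 0.0478 between the classes. With only the 2-month animal FZD3 was 0.039 between the classes and SFRP1 0.23 between outer and inner layers. As means over probe sets FZD3 was 0.38 and SFRP1 -0.63 between the classes. With 1 array left out, WNT7A ranged over -0.19 to 0.0470 between the classes, and between outer and inner layers WNT5A ranged over -0.28 to 0.056 and SFRP1 over -0.20 to 0.18. The cause of these changes was not tested. Signals near 100 and below, as those of FZD3, FZD7, RSPO1 and RSPO2, limit what can be said of these genes.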
